A study of Mus musculus with 6 samples.

Results

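The genes described here encode neuropeptide precursors, granins, the enzymes that process prohormones and their inhibitors: Cck, Scg2, Scg5, Vgf, Penk, Pcsk1n, Pcsk5, Pcsk6, Cpe and the neurotrophin gene Ntf3. They are 10 of the 51997 named loci in the deposited tables of mouse embryonic fibroblasts (MEFs, connective-tissue cells grown out of embryos). They were found by gene symbol and selected on their measured levels in these libraries, because Cck, Scg2 and Ntf3 were lower and Pcsk1n was present only in the knockout libraries. Their genotype difference is therefore given as a description, without a test. RNA was sequenced in 3 libraries of wild-type cells (WT) and 3 of cells labelled Fbxw7 knockout (KO). Fbxw7 encodes the part of an SCF ubiquitin ligase that recognises proteins to be degraded. Both groups grew in DMEM with fetal bovine serum and non-essential amino acids, and the labels name no treatment, age or other allele. How the knockout was made, and whether the libraries came from separate embryos or cultures, is not given in the sources used here, so p-values measure only the spread between these libraries, which may be technical.

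Peptide hormones and neuropeptides are made as larger precursors that enter the secretory pathway. In cells with regulated secretion they are packed with granins into dense-core granules, cut by proprotein convertases at pairs of basic residues, and trimmed by carboxypeptidases before release on a stimulus. Neurons and endocrine cells are known for this pathway. Fibroblasts mostly secrete matrix and growth factors through the constitutive route, where furin-type convertases act.

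Levels are given as CPM (counts relative to the library total, scaled by TMM) to compare libraries, and as the deposited FPKM (fragments relative to transcript length and library total) to compare genes. Errors of levels are SD over 3 libraries. Errors of log2 fold changes (KO over WT, from edgeR) are standard errors. Among 16787 loci tested, 16.1% passed a Benjamini-Hochberg adjusted p of 0.05, 8.03% higher and 8.08% lower in KO, and 37.7% had groups of libraries that did not overlap. Of those called, 49.8% were higher in KO, or 65.7% with scaling by library total only, under which the median log2 fold change over the tested loci went from 0.01 to 0.10. Depth was 51152384 to 70625744 fragments per library. In both genotypes replicate 3 stood apart: 3.32% of 13450 loci with at least 1 CPM differed more than 2-fold between WT replicate 3 and the mean of WT replicates 1 and 2, and 2.98% for KO replicate 3, against 0.193% and 0.156% between replicates 1 and 2. Fbxw7 RNA was 29.3 ± 0.869 CPM in WT and 26.4 ± 1.97 CPM in KO (edgeR adjusted p = 0.332), so the RNA count of the gene does not check the labels. Sex-linked transcripts differed between the groups (values beside Pcsk1n), the sex of the embryos is not given in the sources used here, and a difference in sex composition cannot be told apart from genotype in any comparison of KO with WT below.

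Promoter sequence from RefSeq (build GRCm38.p6) was taken for the members whose levels differed most, to show which letters lie upstream of genes that moved together or apart. Entries matched 7 of the 10 genes in 8 windows of 250 bases before to 50 bases after a start. The stretches below hold the motifs found in Cck, Scg2, Ntf3 and Pcsk1n, in capitals. Positions count from the RefSeq start, with -1 as the base just before it.
Cck, -100 to -1, chr9:121495695-121495794, minus strand: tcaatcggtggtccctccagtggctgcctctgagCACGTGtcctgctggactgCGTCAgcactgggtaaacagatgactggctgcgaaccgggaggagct
Scg2, -79 to -50, chr1:79440076-79440105, minus strand: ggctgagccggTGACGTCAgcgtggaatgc
Scg2, -20 to 8, chr1:79440019-79440046, minus strand: cgaggaGCTGTCCGGTGCTGAAacggcc
Ntf3, -243 to -214, chr6:126166958-126166987, minus strand: cggtgcagcccaCACGTGtatttaacccgt
Pcsk1n, -246 to -217, chrX:7919576-7919605, plus strand: atttcagcccacTGAGTCAatttcccttgt

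The capitals mark an E-box (CACGTG) and the short form of the cAMP response element (TGACG, here on the opposite strand) in Cck, a full cAMP response element (TGACGTCA) in Scg2, an E-box in Ntf3 and a site of the AP-1 type (TGANTCA) in Pcsk1n. The second Scg2 stretch holds, on the opposite strand and end to end, the left (TTCAGCACC) and right (GGACAGC) parts of RE1, the element bound by the repressor REST. The parts were searched apart, and the whole RE1 with its own spacing was not searched. All motifs were searched on both strands, and a full cAMP response element also counts as the short form. Of 32851 promoter windows of this length, 1.79% held the full cAMP response element, 20.8% the short form, 7.15% the E-box, 7.81% the AP-1 type site, 0.371% the left RE1 part and 6.56% the right. Among the 8 windows of these genes, 1 held the full element, 3 the short form, 2 the E-box, and 1 each the AP-1 type site and either RE1 part. The windows with the short form were those of Cck, Scg2 and Scg5. The Scg5 matches, which begin at -175, 20 and 41, are not printed. No motif searched was in the windows of all 3 of Cck, Scg2 and Ntf3. A match gives letters in a window and no evidence of binding.

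Cck encodes cholecystokinin, a peptide hormone of the gut and a neuropeptide of the brain. The gene lies on chromosome 9 (121489824 to 121495694, mm10, minus strand). Its level was 327, 319 and 712 CPM in WT replicates 1, 2 and 3, and 13.4, 16.4 and 13.6 CPM in the KO libraries. The groups did not overlap, and WT replicate 3 held 2.21 times the mean of the other WT libraries, a spread not seen in KO. The means were 453 ± 225 and 14.5 ± 1.73 CPM, so that KO held 3.19% of the WT level, a log2 fold change of -4.97 ± 0.36. These values rest on 75259 fragments in WT and 2744 in KO. In KO, Cck remained well measured, with 760 to 1007 fragments per library. In bulk RNA, fewer cells that express a gene and less RNA per cell cannot be told apart.

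Ntf3 encodes neurotrophin-3, a secreted growth factor of sensory and sympathetic neurons that is itself cut from a precursor (chromosome 6, 126101412 to 126166910, minus strand). WT libraries held 3.36, 2.95 and 3.02 CPM, the KO libraries 0.120, 0.0505 and 0.102 CPM. The WT libraries lay close together, replicate 3 included, and all were far above the KO libraries. The mean was 34.2 times higher in WT (3.11 ± 0.218 against 0.0910 ± 0.0362 CPM), with a log2 fold change of -5.07 ± 0.31, and KO held 18 fragments in all. Per length, its WT level was far below that of Cck: 2.57 ± 0.144 FPKM for Ntf3 and 973 ± 493 FPKM for Cck.

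Penk encodes proenkephalin, the precursor of the enkephalin opioid peptides (chromosome 4, 4133531 to 4138819, minus strand). It was low in all libraries, at 0.286, 0.432 and 0.327 CPM in WT against 0.738, 0.858 and 0.393 CPM in KO. The groups overlapped, since KO replicate 3 lay below WT replicate 2. The log2 fold change was 0.92 ± 0.37, from 57 fragments in WT and 122 in KO. An exon of A830012C17Rik overlaps Penk on the opposite strand, and the sources used here do not say whether counting used strand. That gene's own locus held no fragments in WT and at most 3 in a KO library.

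Vgf encodes a granin-like precursor of several secreted peptides (chromosome 5, 137026392 to 137033351, plus strand). WT libraries held 0.454, 0.647 and 1.34 CPM and KO libraries 0.412, 0.488 and 0.290 CPM. The groups overlapped, and WT replicate 3 stood at 2.44 times the mean of the other WT libraries. The log2 fold change was -1.03 ± 0.45, and -0.47 without WT replicate 3.

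**Figure D1:**
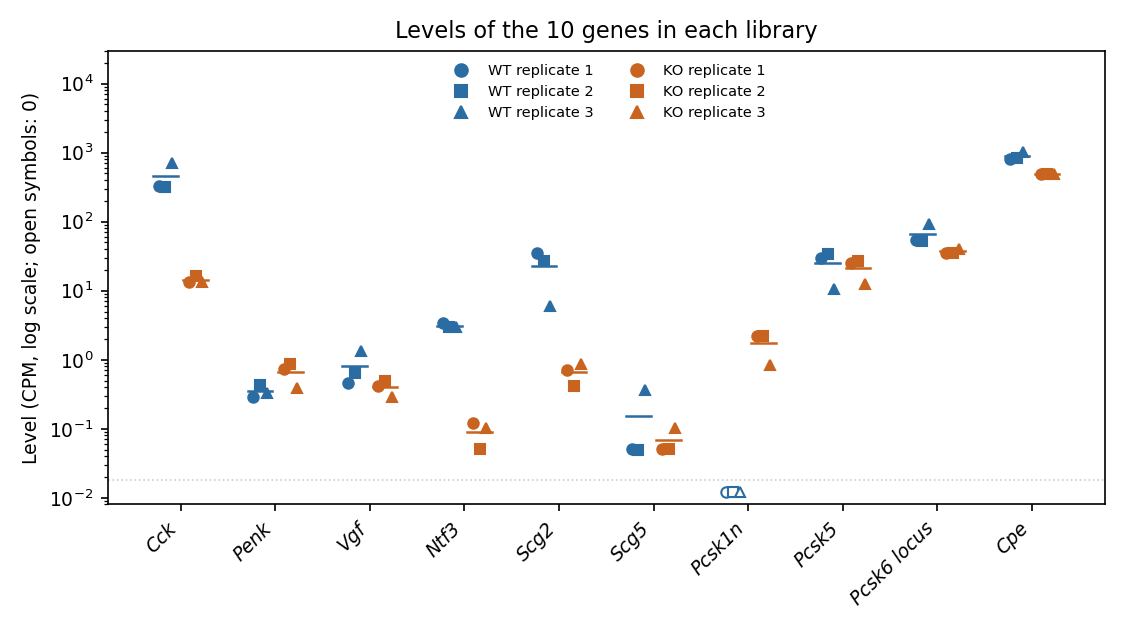
Level of each gene (CPM, log axis) in the 3 WT libraries (blue) and the 3 KO libraries (orange), with symbols for the replicate number, a line at the group mean and open symbols below the dotted line for a value of 0. Cck, Ntf3 and Scg2 lie far lower in every KO library, Pcsk1n is at 0 in WT, Cpe and the locus of Pcsk6 are moderately lower in KO, and the groups of Penk, Vgf, Scg5 and Pcsk5 overlap.

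Scg2 encodes secretogranin II, a granin of the dense-core granule matrix and the precursor of secretoneurin (chromosome 1, 79434669 to 79440120, minus strand). Its level was 34.8, 26.6 and 6.02 CPM in WT replicates 1, 2 and 3, and 0.720, 0.421 and 0.870 CPM in KO. Even the lowest WT library lay above every KO library, but it held only 0.196 times the mean of the other WT libraries. The mean was 22.5 ± 14.8 CPM in WT and 0.670 ± 0.229 CPM in KO, a 33.5-fold difference with a log2 fold change of -5.06 ± 0.67. Its standard error was the largest among the members with a decrease of this size. Scg2 and Cck thus moved in opposite directions in WT replicate 3, while both were low in all KO libraries.

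Scg5 encodes the 7B2 protein, the chaperone and inhibitor of the convertase PC2 (chromosome 2, 113776362 to 113829121, minus strand). It fell below the filter on low counts, the only member to do so. WT libraries held 0.0504, 0.0498 and 0.360 CPM and KO libraries 0.0515, 0.0505 and 0.102 CPM. Of the 25 WT fragments, 20 came from replicate 3, and the groups overlapped. Pcsk2, which encodes PC2 itself, had 1 fragment over all 6 libraries.

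Pcsk1n encodes proSAAS, a granin-like protein known as an inhibitor of the convertase PC1/3, which Pcsk1 encodes (chromosome X, 7919822 to 7924410, plus strand). No fragment was counted in any WT library, while KO libraries held 2.21, 2.22 and 0.853 CPM. KO replicate 3 was at 0.385 times the mean of the other KO libraries. The 322 KO fragments correspond to 1.71 CPM before TMM scaling. A count of 0 in 175183054 WT fragments allows 0.0171 CPM (3 fragments over the group). The pooled KO level was 99.7 times this floor. That ratio leaves out the spread of the KO libraries, of which replicate 3 was lowest. Floors of this kind cover counting error only. The coding gene Eras overlaps an exon of Pcsk1n on the opposite strand, and its own locus was listed at 0 in all 6 libraries.

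Sex-linked transcripts moved with genotype beside this X-linked gene. Xist, the RNA of X inactivation, is counted in 1 locus with Gm27733 and Gm27927, and that locus held 1.47 ± 1.09 CPM in WT against 911 ± 126 CPM in KO. The Y-linked Ddx3y held 95.9 ± 13.8 and 30.4 ± 6.01 CPM. Their part in the result for Pcsk1n, or for any other gene here, was not tested. Of the 8 tested loci within 100 kb of the locus counted for Pcsk1n, 1 rose: Hdac6, which encodes a cytoplasmic deacetylase. It lies 1513 bases from the end of that locus (7928607), which runs past the end of the gene. Hdac6 went from 25.2 ± 2.54 to 33.3 ± 2.2 CPM (log2 fold change 0.40 ± 0.11, edgeR adjusted p = 0.0493). The call for Hdac6 was lost without WT replicate 1, 2 or 3 (adjusted p = 0.175, 0.0883 and 0.0588), without KO replicate 1 or 2 (0.193 and 0.142), with a replicate block (0.0809), with DESeq2 size factors (0.0565) and without a count filter (0.0636).

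Among the proteases, Cpe encodes carboxypeptidase E, which removes the basic residues left by the convertases and is also made outside endocrine cells (chromosome 8, 64592542 to 64693054, minus strand). WT libraries held 797, 840 and 1038 CPM, and KO libraries 496, 498 and 496 CPM. The KO values nearly coincided, and all lay below the WT values. KO held 55.7% of the WT level (892 ± 128 against 497 ± 1.59 CPM), a log2 fold change of -0.84 ± 0.12. Cpe was the most abundant of these genes in KO per length, at 242 ± 5.10 FPKM.

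Pcsk5 encodes PC5/6, a convertase of growth factors and peptides with a form that stays in the secretory pathway (chromosome 19, 17432319 to 17837632, minus strand). WT libraries held 30.3, 33.6 and 10.6 CPM and KO libraries 25.1, 26.7 and 12.5 CPM. The low library of each group was replicate 3, at 0.332 of the mean of the others in WT and 0.482 in KO, and the groups overlapped. The log2 fold change was -0.21 ± 0.44, and its sign turned without WT replicate 2 (0.07) or KO replicate 3 (0.06).

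Pcsk6 encodes PACE4, a convertase of TGF-beta family precursors that binds to matrix (chromosome 7, 65861734 to 66050386, plus strand). The files count it in 1 locus (65861006 to 66074587) with Snrpa1, which encodes a spliceosomal protein, and Gm45213, so the values are those of the locus and Pcsk6 cannot be separated. The locus held 55.1, 51.9 and 92.3 CPM in WT against 35.5, 35.4 and 40.2 CPM in KO. Every WT library lay above every KO library, replicate 3 of WT highest. The log2 fold change was -0.84 ± 0.22, and -0.53 without WT replicate 3.

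Over the 10 genes, 9 passed the count filter, and Pcsk1n passed it through the KO group alone. In 6 of them the groups of libraries did not overlap, with KO lower in 5 (Cck, Ntf3, Scg2, the locus of Pcsk6 and Cpe) and higher in 1 (Pcsk1n), against 37.7% of all tested loci without overlap. Since the genes were chosen for this contrast, the count describes the choice and supports nothing. Their median log2 fold change was -0.84, beside 0.01 over all loci tested. Of the 16787 loci, 17 had a lower log2 fold change than Cck, 12 than Scg2 and 11 than Ntf3.

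Per length, the order of levels differed between genotypes. In WT it ran from Cck (684 to 1543 FPKM) through Cpe (385 to 522 FPKM), the locus of Pcsk6, Scg2, Pcsk5, Ntf3, Vgf, Penk and Scg5 down to Pcsk1n at 0. The ranges of Scg2 and Pcsk5, of Pcsk5 and Ntf3, of Vgf and Penk, and of Penk and Scg5 overlapped. Within each WT library Scg2 still lay above Pcsk5 (14.7 and 4.92, 11.4 and 5.54, 2.62 and 1.78 FPKM in replicates 1, 2 and 3). The order within the other pairs named changed between WT libraries. In KO, Cpe came first (237 to 247 FPKM), with Cck (27.3 to 37.9 FPKM) and the locus of Pcsk6 (27.7 to 31.6 FPKM) next and overlapping. Pcsk5 followed at 1.99 to 4.34 FPKM, and all others lay at or below 1.03 FPKM. Pcsk1n at 0.809 ± 0.364 FPKM overlapped Penk, Penk overlapped Scg2, Scg2 overlapped Vgf, and Ntf3 overlapped Scg5 at the bottom. Within each KO library Pcsk1n still lay above Penk, and Scg2 above Vgf.

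The weight of replicate 3 differed from gene to gene. Among the 6 members with a mean of at least 1 CPM in this comparison, Cck, Scg2 and Pcsk5 (3 of 6) differed by more than 2-fold between WT replicate 3 and the mean of the other WT libraries, against 3.32% of all loci. Their log2 ratios, with 0.5 CPM added, were 1.14, -2.26 and -1.55. In KO only Pcsk5 did so (-1.02, 1 of 6), against 2.98% of all loci. Without replicate 3 of both genotypes, the log2 fold changes were -4.44 for Cck, -5.75 for Scg2, -5.18 for Ntf3, -0.72 for Cpe and -0.30 for Pcsk5.

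**Figure D2:**
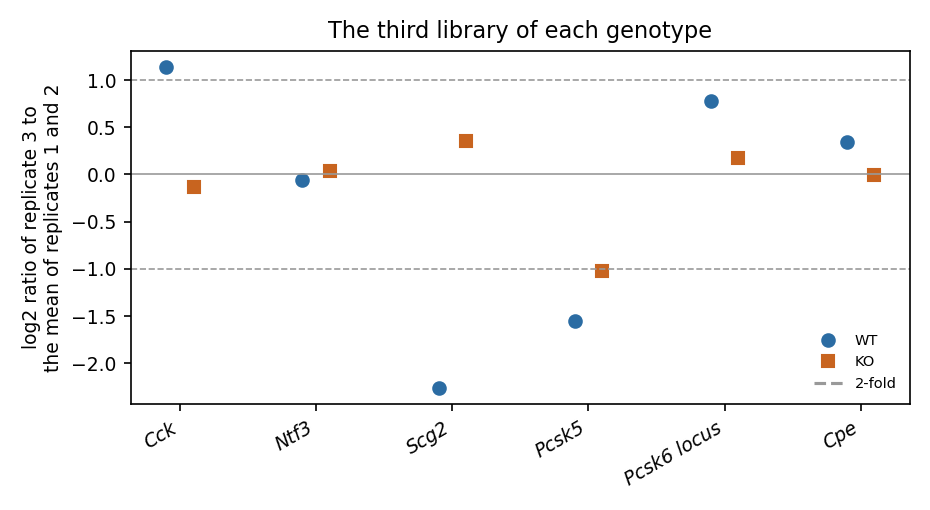
Log2 ratio of replicate 3 to the mean of replicates 1 and 2 (CPM + 0.5) for the 6 members with a mean of at least 1 CPM, in WT (circles) and KO (squares), with dashed lines at 2-fold. In WT replicate 3 Cck is high (1.14), Scg2 (-2.26) and Pcsk5 (-1.55) are low, and Ntf3 is near 0 (-0.05).

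The wider pathway was followed in 173 other genes, listed by role. Of these, 92 were tested, 12 shared their locus with another gene and 69 were below the filter, 17 of them at 0 in every library. By edgeR's adjusted p, 12 rose in KO, 9 fell and 71 passed in neither direction, so that 22.8% were called against 16.1% of all loci. Their median log2 fold change was -0.01, beside 0.01 over all loci. With library totals in place of TMM factors, 18 rose and 8 fell. Leaving out 1 library gave 8 to 17 that rose and 4 to 11 that fell: the number that fell was 5 without WT replicate 1, WT replicate 2 or KO replicate 2, and 4 without KO replicate 1. With replicates 1 and 2 of each genotype summed, which leaves 2 samples per group, 2 of the 21 calls remained: Nts (edgeR adjusted p = 0.0301) and Adm2 (0.0392). The other 19 were lost there, for example Sv2a (0.0616) and Cpxm2 (0.319). Nts passed the count filter through its KO libraries alone. With limma on log2(FPKM + 1) and no filter, 6 of the 21 remained: Nts, Adm2, Sv2a, Syt17, Rims1 and Rcor2.

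Other granins were close to absent. Chgb, which encodes chromogranin B, held 0.498 ± 0.128 CPM in WT against 0.391 ± 0.119 CPM in KO (log2 fold change -0.35 ± 0.35, edgeR adjusted p = 0.543). Chga, the classic marker of dense-core granules, had no fragment, and Scg3 had at most 6 in a library.

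Of 50 other peptide precursor genes, 10 were tested: 2 rose and 1 fell. Adm2, which encodes intermedin of the calcitonin family, rose from 1.19, 1.74 and 0.703 CPM in WT to 5.51, 5.10 and 6.23 CPM in KO. The groups were well apart, with a log2 fold change of 2.21 ± 0.31 (edgeR adjusted p = 0.00393). Nts, the neurotensin gene, rose from 3 fragments in the 3 WT libraries to 89 in KO, a ratio of 27.5 with a 95% counting interval of 9.12 to 136 (log2 fold change 4.66 ± 0.59, edgeR adjusted p = 0.00245). Like Pcsk1n, Nts passed the count filter through the KO group alone, with 0, 1 and 2 fragments in the WT libraries. Agt, which encodes angiotensinogen, fell from 1.26 ± 0.399 to 0.249 ± 0.144 CPM (-2.32 ± 0.48, edgeR adjusted p = 0.0169). Its call was also lost without KO replicate 1 (adjusted p = 0.0551) and with a replicate block (0.0528). The other 36 genes below the filter and 4 in shared loci included most of the classic neuropeptide genes.

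None of the 6 other convertase genes tested was called. Furin, which encodes the general convertase of the constitutive pathway, held 144, 170 and 170.7 CPM in WT against 190, 203 and 121 CPM in KO. KO replicate 3 was the lowest library and the other KO libraries the highest, with a log2 fold change of 0.09 ± 0.19 (edgeR adjusted p = 0.792). Without replicate 3 of both genotypes it was 0.33 (adjusted p = 0.0069). Mbtps1, which encodes the site-1 protease, stood at 228 ± 14.9 and 234 ± 10.7 CPM (edgeR adjusted p = 0.834). Pcsk1, which encodes the target of proSAAS, held 0.874, 0.349 and 0.589 CPM in WT against 0.223, 0.252 and 0.256 CPM in KO. Its groups did not overlap, but its log2 fold change of -1.30 ± 0.39 did not pass (edgeR adjusted p = 0.0614), while it passed without WT replicate 2 (0.0483) or replicate 3 of both genotypes (0.0294).

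Of 7 tested genes for trimming and amidation, 1 rose and 1 fell, both encoding proteins of the carboxypeptidase family that are thought to lack enzyme activity. Cpxm1 rose from 77.6, 84.1 and 55.7 CPM to 119, 124 and 101 CPM (log2 fold change 0.66 ± 0.16, edgeR adjusted p = 0.0308). The call was lost without WT replicate 1, KO replicate 1 or KO replicate 2 (adjusted p = 0.0789, 0.102 and 0.091). Cpxm2 held 6.52, 6.94 and 0.670 CPM in WT against 0.497, 0.690 and 0.819 CPM in KO, so that WT replicate 3 lay among the KO libraries. Its fall (-2.81 ± 0.75, edgeR adjusted p = 0.0419) was lost without WT replicate 1 or 2 (adjusted p = 0.129 and 0.13), without KO replicate 1, 2 or 3 (0.143, 0.132 and 0.113), with a replicate block (0.124) and without a count filter (0.199).

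**Figure D3:**
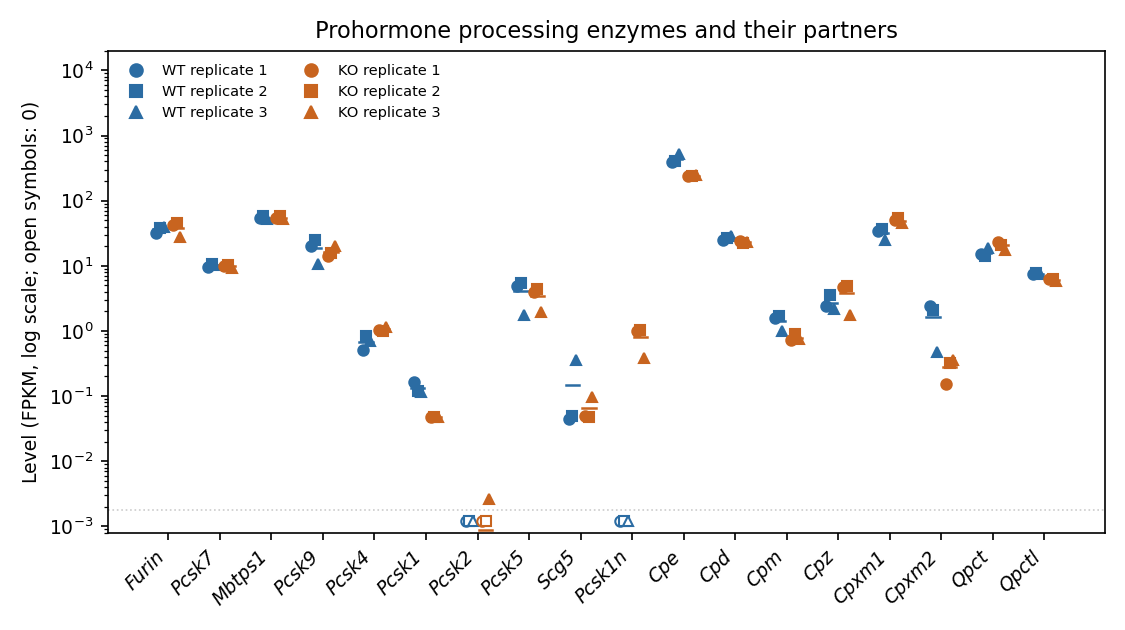
Level (deposited FPKM, log axis) of convertases, their partners and trimming enzymes that have a locus of their own, in WT (blue) and KO (orange) libraries, with a line at each group mean and open symbols below the dotted line for 0. Cpe has the highest level in both genotypes, Furin and Mbtps1 lie at similar levels in both, Pcsk1 and Scg5 are low, Pcsk2 is near 0, and Pcsk1n has values in KO only.

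Genes of the granule membrane and of exocytosis were the longest list tested: of 36, 8 rose and 3 fell, 30.6% against 16.1% of all loci, with a median log2 fold change of 0.24. The shares called were 33.3% among the receptors and 30% among the other peptide precursors. Sv2a, which encodes a vesicle glycoprotein, rose from 1.65 ± 0.169 to 4.18 ± 0.479 CPM (log2 fold change 1.34 ± 0.18, edgeR adjusted p = 0.00346). Genes of the synaptotagmin family, membrane proteins of vesicle traffic of which some sense calcium, moved both ways. Syt17 rose from 13.4 ± 1.37 to 25.8 ± 4.16 CPM (adjusted p = 0.00616, edgeR), Syt11 from 22.3 ± 4.26 to 43.9 ± 7.72 CPM (0.0109) and Syt5 from 0.0721 ± 0.0350 to 0.464 ± 0.115 CPM (0.00852). Syt5 passed the count filter through KO alone, with 5, 5 and 2 fragments in the WT libraries. Hid1, required for dense-core granule formation, rose from 0.237 ± 0.0655 to 1.09 ± 0.371 CPM (log2 fold change 2.19 ± 0.38, edgeR adjusted p = 0.00852). The WT libraries held 12, 10 and 17 fragments of Hid1. By FPKM it rose less, from 0.2125 ± 0.1037 to 0.3981 ± 0.0848, and the groups met (highest WT 0.3177, lowest KO 0.3176). Rims1, which encodes a scaffold of synaptic release sites, fell from 4.22 ± 0.144 to 0.965 ± 0.543 CPM (-2.13 ± 0.39, adjusted p = 0.0107, edgeR). Cplx2 and Syt1 also fell. Cplx2 and Syt1 were named after their values were seen.

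**Figure D4:**
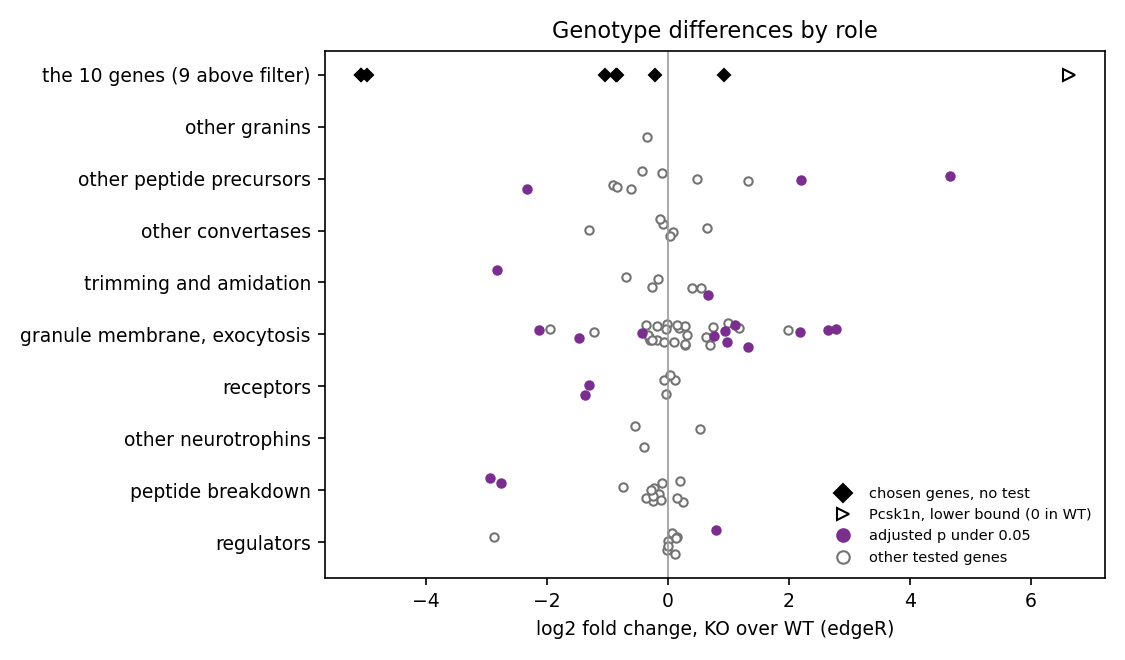
Log2 fold change, KO over WT, of the 9 members above the count filter (black diamonds, with an open triangle at the lower bound for Pcsk1n) and of 92 tested genes of the pathway by role (purple where the edgeR adjusted p was under 0.05, open otherwise); heights within a row carry no meaning. The members reach -5.07, and the open triangle marks 99.7-fold, the pooled KO level of Pcsk1n over the WT floor. This bound leaves out the spread of the KO libraries. No tested convertase, granin or neurotrophin outside the members is purple.

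Of 19 receptor and sorting receptor genes for the members' peptides, 12 were below the filter. Cckar and Cckbr, the cholecystokinin receptor genes, had at most 1 fragment in a library, and Oprm1, the mu opioid receptor gene, none. Ntrk3, the receptor gene of neurotrophin-3, had 0 to 20 fragments per library and lay below the filter. Of 6 tested genes in this list, 2 fell. The most abundant of those that did not pass, named after their values were seen, were Sorcs2, a sorting receptor gene (609 ± 221 CPM in WT, 626 ± 84.5 CPM in KO, edgeR adjusted p = 0.938), and C1qbp (93.2 ± 17 and 102 ± 12.3 CPM, adjusted p = 0.616). Ackr3, which encodes a scavenger receptor for chemokines and opioid peptides, went from 11.3, 11.6 and 8.34 CPM to 3.04, 2.69 and 6.47 CPM (log2 fold change -1.36 ± 0.34, edgeR adjusted p = 0.0321). The call was lost without WT replicate 1 or 2 (adjusted p = 0.101 and 0.106), without KO replicate 1 or 2 (0.116 and 0.0926) and with a replicate block (0.0586). Sorcs1, a sorting receptor of the sortilin family, fell from 5.78 ± 1.52 to 2.34 ± 0.315 CPM (-1.30 ± 0.24, edgeR adjusted p = 0.0109).

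None of the 3 other neurotrophin genes passed. Bdnf was at 26.9 ± 8.40 and 20.5 ± 3.94 CPM in WT and KO (log2 fold change -0.39 ± 0.23, edgeR adjusted p = 0.294), and passed without replicate 3 of both genotypes (0.0491).

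Of 14 tested peptidases that break down extracellular or cytosolic peptides, 2 fell. Dpp4, which encodes a peptidase of incretins and chemokines, fell from 0.536 ± 0.111 to 0.0681 ± 0.0515 CPM (log2 fold change -2.94 ± 0.52, edgeR adjusted p = 0.00981). Dpp4 passed the count filter through WT alone, with 7, 4 and 1 fragments in the KO libraries. Enpep, which encodes the aminopeptidase of angiotensin II, held 2.72, 2.59 and 0.474 CPM in WT against 0.240, 0.269 and 0.341 CPM in KO. Like Scg2 and Cpxm2, it was lowest of the WT libraries in replicate 3. Its fall (-2.76 ± 0.63, edgeR adjusted p = 0.024) was lost without WT replicate 1 or 2 (adjusted p = 0.08 and 0.0817), without KO replicate 1, 2 or 3 (0.0953, 0.0922 and 0.0658) and with a replicate block (0.0625).

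Among regulators of neuroendocrine genes, 1 of 9 tested rose and none fell. Rcor2, which encodes a corepressor of the CoREST family, rose from 8.61 ± 1.16 to 14.9 ± 1.09 CPM (log2 fold change 0.80 ± 0.14, edgeR adjusted p = 0.00962). Rest itself, parts of whose element lie at the Scg2 start shown above, was at 80.5 ± 4.16 and 84.7 ± 8.53 CPM (0.07 ± 0.10, edgeR adjusted p = 0.67). Creb1 and Crem, whose proteins bind cAMP response elements, had log2 fold changes of -0.01 ± 0.15 and 0.00 ± 0.14 (edgeR adjusted p = 0.977 and 0.989). RNA levels say nothing of the activity of these factors. Srrm4, which encodes a splicing factor of neurons and was named after its values were seen, held 13.8, 15.2 and 13.9 CPM in WT against 0.446, 0.303 and 5.10 CPM in KO. Its groups did not overlap, KO replicate 3 stood above the other KO libraries, and the log2 fold change of -2.87 ± 0.90 did not pass (edgeR adjusted p = 0.0684).

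Position was not used to choose the genes. Within 100 kb of a member lay 70 loci, of which 27 were tested, 1 rose and 3 fell, beside 16.1% of all loci called. Fmn1, a formin gene 59595 bases from Scg5, fell from 87.0 ± 2.42 to 41.8 ± 2.92 CPM (log2 fold change -1.06 ± 0.09, edgeR adjusted p = 0.000541). Selenos, 5062 bases from the locus of Pcsk6, fell from 69.7 ± 5.48 to 44.9 ± 2.78 CPM (-0.63 ± 0.10, adjusted p = 0.00567, edgeR). Gcnt1, 76165 bases from the locus counted for Pcsk5, fell from 0.537 ± 0.213 to 0.170 ± 0.0443 CPM (-1.65 ± 0.42, adjusted p = 0.036, edgeR). The call for Gcnt1 was lost without WT replicate 1 or 3 (adjusted p = 0.135 and 0.0633), KO replicate 1 or 2 (0.134 and 0.0982) or with a replicate block (0.0783), and the fourth neighbour is Hdac6. With replicates 1 and 2 of each genotype summed, Fmn1 alone kept its call (edgeR adjusted p = 0.0251). Trak1, the only tested neighbour of Cck, was at 65.9 ± 5.51 and 72.1 ± 3.69 CPM (edgeR adjusted p = 0.399), and no neighbour of Penk, Ntf3 or Scg2 was tested.

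The libraries carried the fibroblast markers of their label: 7 such genes with loci of their own summed to 22500 to 29800 CPM in WT and 20600 to 22100 CPM in KO, led by Col1a2 at 10440 and 9042 CPM. Of these 7, Dcn and Lum rose and Vim fell. Neuron markers summed to 25 to 28 CPM in WT and 7.59 to 18.0 CPM in KO. Most of this sum was Map2, at 21.8 ± 2.47 CPM in WT and 10.2 ± 4.92 CPM in KO. Of the 4 neuron markers tested, 3 fell (Map2, Syt1 and Stmn2, named after their values were seen). The other tested marker was higher in KO on average and did not pass. Map2 was near the threshold (edgeR adjusted p = 0.0488). Stmn2 passed the count filter through WT alone, with 9, 7 and 7 fragments in the KO libraries. Elavl3, also named after its values were seen, shares its locus and was left out of the sum. That locus held 4.76 ± 0.589 and 5.68 ± 0.402 CPM (edgeR adjusted p = 0.314). Rbfox3 and Snap25, which define mature neurons, were at 0 in every library. The part of the neuron markers in the lower levels of Cck, Scg2 and Ntf3 was not tested. Neuroendocrine markers summed to 0.965 to 1.39 CPM in WT and 1.39 to 1.77 CPM in KO: none of the 3 tested passed, and Chga and Th were at 0. Endothelial markers summed to 6.46 to 9.24 CPM in WT and 0.614 to 1.42 CPM in KO, and both tested markers, Kdr and Tek, fell. Most of this sum was Kdr (5.59 CPM in WT, 0.703 CPM in KO) and Tek (1.87 and 0.340 CPM). Pecam1 (0.106 and 0.0511 CPM) and Cdh5 (0.0221 and 0.0171 CPM) were near 0 in both genotypes. Markers of glia and neural crest (2.22 to 2.94 and 2.17 to 2.88 CPM), skeletal muscle (0.149 to 0.262 and 0.0673 to 0.205 CPM), epithelium (0.229 to 0.454 and 0.101 to 0.154 CPM) and blood cells (1.49 to 2.26 and 0.631 to 1.36 CPM) were low in both genotypes, and of their tested members Erbb3 of the glial list rose and Cd68 of the blood list fell.

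The genes most like each of the 4 members that differed most were found by Pearson's r of log2(CPM + 0.5) over the 6 libraries, among tested loci with a mean of at least 10 CPM. With 3 libraries per genotype, r mostly reflects the genotype split, and it is given as a description. Cck was most like Car8, Traf3ip2 and Myh10 (r = 0.998 for each). Car8, which encodes a carbonic anhydrase-related protein, held 36.4, 33.8 and 60.4 CPM in WT against 5.99, 5.90 and 5.09 CPM in KO, so that it shared the high value of WT replicate 3. Scg2 was most like Deptor (0.999), Ogn (0.998) and Ednrb (0.997). Ogn, a matrix proteoglycan gene, held 659, 576 and 216 CPM in WT against 85.4, 59.7 and 75.6 CPM in KO, and Ednrb, an endothelin receptor gene, held 49.1, 44.0 and 17 CPM in WT against 3.4, 3.01 and 3.74 CPM in KO. Both shared the low value of WT replicate 3 with Scg2. Ntf3 was most like Prex2 (0.998), Inpp1 and Ercc5 (0.997 each), and Pcsk1n like Sfxn2 (0.999), Tram1l1 and Inhbb (0.997 each). Inhbb, an inhibin subunit gene, held 181, 193 and 198 CPM in WT against 460, 489 and 325 CPM in KO, lowest of the KO libraries in replicate 3, as was Pcsk1n.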

How the data were processed

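Estimated counts (expected fragments per locus) and FPKM of 6 libraries were deposited by the authors, both in the column layout of Cufflinks per the file headers. The submitters' processing notes name build mm10 and Cufflinks 2.2.1, TopHat2 2.1.1, deepTools and SAMtools 1.5. The annotation and the use of strand are not given in the sources used here. In each library 88.9% to 89.5% of estimated counts up to 1000 were whole multiples of 1 step (tolerance 0.05), which gave the unscaled fragments. Of 53323 loci, 1317 without a name (at most 3.13e-05% of a library) and 9 marked HIDATA, whose value was not estimated, were left out.

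Rounded estimated counts entered the robust quasi-likelihood F test of edgeR 4.0.16 (R 4.3.3), two-sided, after filterByExpr and TMM scaling, with genotype only and Benjamini-Hochberg adjustment over all loci. Groups came from the genotype labels. Alternatives were other scalings and filters, the Wald test of DESeq2 1.42.0, limma 3.58.1 on log2(FPKM + 1 or 0.1), a replicate block and libraries left out. On simulated data of 16546 genes, edgeR recovered 14.9%, 55.2% and 78.8% of genes changed 1.5-fold, 2-fold and 4-fold, with 12 false calls. Only a small part of these genes was changed, so the false calls are a larger share of the calls than of the genes. All simulated libraries were drawn independently, whereas replicate 3 stood apart in the data, so these rates may not hold here. Positions are from GENCODE on the same build.

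The members and the lists were chosen with earlier results of these data known. Named are all members, the called genes of each list (at most 6 by adjusted p, or the 2 most abundant by FPKM where none passed), called neighbours within 100 kb, the most abundant fibroblast marker, the 3 most alike genes, and Rest, Creb1, Crem, Furin, Pcsk1 and Pcsk2. Receptors, granins and markers at or near 0, Trak1 and the motifs were added after values were seen. For 2 lists a gene that the rule or the count covers is not reported here.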

Additional observations from a re-analysis of the deposited data

How the results depend on the processing

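Over the alternatives that could be computed, the sign of the log2 fold change held for the 8 members other than Pcsk5 that were tested. Of 162 member values 12 were labelled as moved, by a rule that does not follow the standard errors. Ntf3 at -5.32 (main value -5.07 ± 0.31) was among the 12. Cck at -4.44 (main value -4.97 ± 0.36) was not, though it moved by more than its standard error. The ranges were -5.19 to -4.44 for Cck, -5.75 to -2.81 for Scg2, -5.32 to -1.73 for Ntf3, 0.83 to 10.1 for Pcsk1n, -0.92 to -0.72 for Cpe and -0.99 to -0.53 for the locus of Pcsk6. The smallest sizes for Scg2, Ntf3 and Pcsk1n came from log2(FPKM + 1), which understates low genes; Penk, Vgf and Pcsk1n had no value under the FPKM filter or with a CPM of at least 1. Of 444 values of named pathway genes, 47 lost and 8 gained the threshold, and none reversed.

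Of all loci, 2705 were called. limma called 1562 on log2(FPKM + 1), 1615 on log2(FPKM + 0.1) and 1182 without a filter, with 37.6% of the calls higher at either pseudocount under the filter. Leaving out 1 library gave 1169 (without KO replicate 1) to 3282 (without KO replicate 3), leaving out replicate 3 of both genotypes gave 6993, and summing replicates 1 and 2 of each genotype gave 484. The pathway genes that rose numbered 12, and 5 under each limma setting, 25 without replicate 3 of both genotypes, 2 with replicates 1 and 2 summed and 8 to 17 without 1 library. Those that fell numbered 9, and 5 with a CPM of at least 1 in 3 libraries, 4, 4 and 2 under the limma settings, 27 without replicate 3 of both genotypes, 0 with replicates summed (by edgeR) and 4 to 11 without 1 library. Called neighbours numbered 4, and 2 under each limma setting, 2 with the replicate block, 2 within 50 kb, 9 without replicate 3 of both genotypes, 1 with replicates summed and 2 to 6 without 1 library. Summed replicates leave fewer samples, and the cause of the other shifts was not tested.

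Same-numbered libraries of the genotypes correlated at 0.057, 0.215 and 0.112 in their deviations over 9634 genes, and replicates 2 and 3, but not 1, did so best with their own number. Since 1 pair was not over 0.1 and the labels name no shared source, the numbers were not taken as pairs, though replicates 2 and 3 lean towards pairing. With the replicate block 2356 loci were called, 12 pathway genes rose and 6 fell. Depth limits Scg5, Penk, Vgf, Nts and KO values of Ntf3, which rest on few fragments.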
